A study of Mus musculus with 6 samples.

Results

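The genes described here are 34 genes of the hypoxia response and of glycolysis, named in a fixed list and matched by symbol to the gene names of a single-cell RNA count matrix. All 34 were found among its 32285 genes, and each had at least 50 molecule counts in the cells kept. The rule picks them by symbol and uses no count of theirs. The list holds 20 genes of the glycolytic path, from glucose uptake to lactate export (Slc2a1, Slc2a3, Hk1, Hk2, Gpi1, Pfkl, Pfkp, Pfkfb3, Aldoa, Aldoc, Tpi1, Gapdh, Pgk1, Pgam1, Eno1, Eno2, Pkm, Ldha, Pdk1 and Slc16a3). The other 14 act outside that path (Car9, Bnip3, Bnip3l, Ndrg1, Egln1, Egln3, Adm, Ero1l, Ankrd37, P4ha1, P4ha2, Mxi1, Hilpda and Kdm3a).

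MOC-2 is a mouse oral squamous carcinoma line, and the tumors were grown from it under the skin of 6 male mice. Palpable tumors were injected with vehicle (DMSO, 3 mice) or with an experimental agent (3 mice), and live sorted cells were taken 24 hours later. The protocol lists copper diethyldithiocarbamate, R848, galunisertib, clodronate, 4-1BB ligand and other reagents, and which of them the treated tumors received is not given in the sources used here. Cells of each tumor carried their own oligonucleotide tag and were pooled before 3′ single-cell RNA sequencing. Age and mouse strain are not given in the sources used here, and each tumor came from a single established line. The barcodes fall into 6 sets by their suffix, of 901 to 4077 cells and 7354560 to 38798439 gene counts, and no barcode sequence was shared between sets. No label ties a set to a tumor or a treatment, so the treated and vehicle tumors were not compared, the pool counts as 1 sample, and no p-value is given. Each value is given for the pool with an exact 95% Poisson interval, which covers counting error only, and for single barcode sets, which belong to no group.

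Cells adapt to low oxygen through hypoxia-inducible factors (HIF), transcription factors whose alpha subunits are hydroxylated by the Egln oxygen sensors and then degraded with the help of Vhl. When oxygen is short, HIF binds a short motif in promoters and enhancers and raises genes of glucose uptake, glycolysis, lactate export, acid handling, mitophagy and collagen hydroxylation. Tumor cells and activated immune cells can also run glycolysis at high rates in the presence of oxygen, so the enzymes of the path are no measure of oxygen by themselves.

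The DNA before 6 of the genes is shown because these genes span the behaviours described further on. Bnip3, Ldha, Pgk1 and P4ha1 varied together within carcinoma cells, and Slc16a3 was high in macrophages and low in carcinoma cells. Hk2 was highest in fibroblasts and did not follow the summed other members within mesenchymal carcinoma cells. The sequences are RefSeq promoters on GRCm38.p6, the mm10 assembly, cut to the bases before the transcription start and freed of annotated exon bases (13 for Bnip3 and 14 for Slc16a3). They run 5′ to 3′ along the strand of the gene, and capitals mark ACGTG or GCGTG, the core of the HIF-binding motif, on either strand (CACGT and CACGC on the other).
Bnip3 (chr7:138909520-138909756, minus strand): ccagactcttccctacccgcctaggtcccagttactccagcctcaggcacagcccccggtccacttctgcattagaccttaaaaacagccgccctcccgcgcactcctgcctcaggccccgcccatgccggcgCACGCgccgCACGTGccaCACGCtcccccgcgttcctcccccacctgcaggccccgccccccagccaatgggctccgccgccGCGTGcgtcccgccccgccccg
Ldha (chr7:46845554-46845803, plus strand): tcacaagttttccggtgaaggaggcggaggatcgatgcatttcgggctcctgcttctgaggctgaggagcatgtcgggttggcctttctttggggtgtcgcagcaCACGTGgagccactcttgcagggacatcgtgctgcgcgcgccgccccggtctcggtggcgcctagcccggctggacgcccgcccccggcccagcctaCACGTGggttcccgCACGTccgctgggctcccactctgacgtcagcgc
Pgk1 (chrX:106186850-106187099, plus strand): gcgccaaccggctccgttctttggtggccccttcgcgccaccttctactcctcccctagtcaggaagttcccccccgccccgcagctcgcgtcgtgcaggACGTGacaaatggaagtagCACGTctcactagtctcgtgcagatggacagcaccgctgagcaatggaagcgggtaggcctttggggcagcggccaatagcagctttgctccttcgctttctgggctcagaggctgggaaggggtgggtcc
P4ha1 (chr10:59323046-59323295, plus strand): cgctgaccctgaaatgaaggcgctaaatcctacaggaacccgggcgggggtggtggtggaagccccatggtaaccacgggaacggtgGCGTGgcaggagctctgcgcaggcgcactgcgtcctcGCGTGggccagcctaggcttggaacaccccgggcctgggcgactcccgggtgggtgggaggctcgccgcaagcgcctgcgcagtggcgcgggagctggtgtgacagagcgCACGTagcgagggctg
Slc16a3 (chr11:120948817-120949052, plus strand): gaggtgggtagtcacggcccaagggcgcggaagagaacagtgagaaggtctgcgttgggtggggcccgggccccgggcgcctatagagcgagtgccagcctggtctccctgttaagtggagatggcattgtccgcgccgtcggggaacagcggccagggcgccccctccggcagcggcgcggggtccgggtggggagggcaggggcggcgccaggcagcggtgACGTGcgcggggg
Hk2 (chr6:82774455-82774704, minus strand): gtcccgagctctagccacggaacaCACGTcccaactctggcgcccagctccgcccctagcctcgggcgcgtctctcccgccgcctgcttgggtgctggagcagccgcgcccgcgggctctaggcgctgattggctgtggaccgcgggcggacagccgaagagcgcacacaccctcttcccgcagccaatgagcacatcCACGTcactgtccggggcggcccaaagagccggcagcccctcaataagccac
The windows before Bnip3, Pgk1, P4ha1 and Hk2 lie outside annotated genes, and those before Ldha and Slc16a3 lie inside the annotated span of the same gene, upstream of the start used by RefSeq and outside exons. Bnip3 and Ldha hold 5 matches each, P4ha1 holds 3, Pgk1 and Hk2 hold 2 each, and Slc16a3 holds 1. A palindromic CACGTG counts on both strands.

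RefSeq promoters were matched for 31 of the 34 genes (46 promoters of 250 bases before the start), and Slc2a3, Bnip3l and Ndrg1 were not matched. ACGTG or GCGTG was present in 76.1% of the 46, against 38.6% of all 32851 promoters of the same length. Promoters rich in CG pairs hold more such letters. Among the 7728 promoters with at least the members' median number of CG pairs, 69.2% held either motif. ACGTG alone was in 47.8% of the member promoters, in 16.6% of all promoters and in 25.5% of the CG-rich ones. GCGTG went the other way against the CG-rich promoters, at 50.0% of the member promoters, 28.2% of all and 59.1% of the CG-rich ones. The median number of CG pairs was 16.5 in member promoters and 24.0 in the CG-rich ones. Of the 31 matched genes, 28 had either motif and 19 had ACGTG. These matches describe letters and say nothing of occupancy.

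Cells were grouped into 13 named classes and 1 unnamed class from clusters made without the 34 genes. Mesenchymal carcinoma-like cells, rich in Xist and nearly free of Y-linked transcripts although the hosts were male, made up 8573 of 13728 cells (62.45%) and 79.60% of the molecule counts. Epithelial carcinoma-like cells, which carried keratins, Epcam and Cdh1, numbered 734, of which 285 lay in barcode set 3. The class of macrophages and monocytes, called macrophage-like here, numbered 1929 cells and fibroblast-like cells 492. T cell-like cells numbered 539, NK cell-like cells 354, osteoclast-like cells 223 and dendritic cell-like cells 190. The smallest classes were mast or basophil-like (76), neutrophil-like (69), endothelial-like (63), pericytes with smooth muscle (65, called pericyte-like) and B or plasma cell-like (32). Levels are given as CPM, the counts of a gene scaled to 1000000 counts of the class. A further 218 cells low in Xist, Y-linked RNA and Malat1 (158.6 CPM, against 15690 CPM in mesenchymal carcinoma-like cells) stayed unnamed. Median depth differed widely, at 11400 counts per mesenchymal carcinoma-like cell and 2001 per macrophage-like cell.

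Together the 34 genes took 896974 of 140107340 counts. Summed, they were higher in epithelial carcinoma-like, macrophage-like, neutrophil-like and unnamed cells than in mesenchymal carcinoma-like cells. They were lowest in B or plasma cell-like, mast or basophil-like and NK cell-like cells. In mesenchymal carcinoma-like cells the sum was 6370 CPM (interval 6355 to 6384). It was 7453 CPM (7394 to 7512) in epithelial carcinoma-like cells and 7276 CPM (7198 to 7354) in macrophage-like cells. The neutrophil-like cells reached 7209 CPM (6904 to 7525), with only 2 barcode sets holding 20 or more of them. The unnamed class had 7161 CPM (7021 to 7303) and exceeded mesenchymal carcinoma-like cells in 3 of the 5 sets that held 20 or more of its cells. Fibroblast-like cells had 6286 CPM and T cell-like cells 5764 CPM. NK cell-like cells had 3933 CPM, the lowest of the classes with over 100 cells. Per cell the order differed, because macrophages are shallow: mesenchymal carcinoma-like cells held 82.9 counts of the 34 genes each and macrophage-like cells 17.4.

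**Figure D1:**
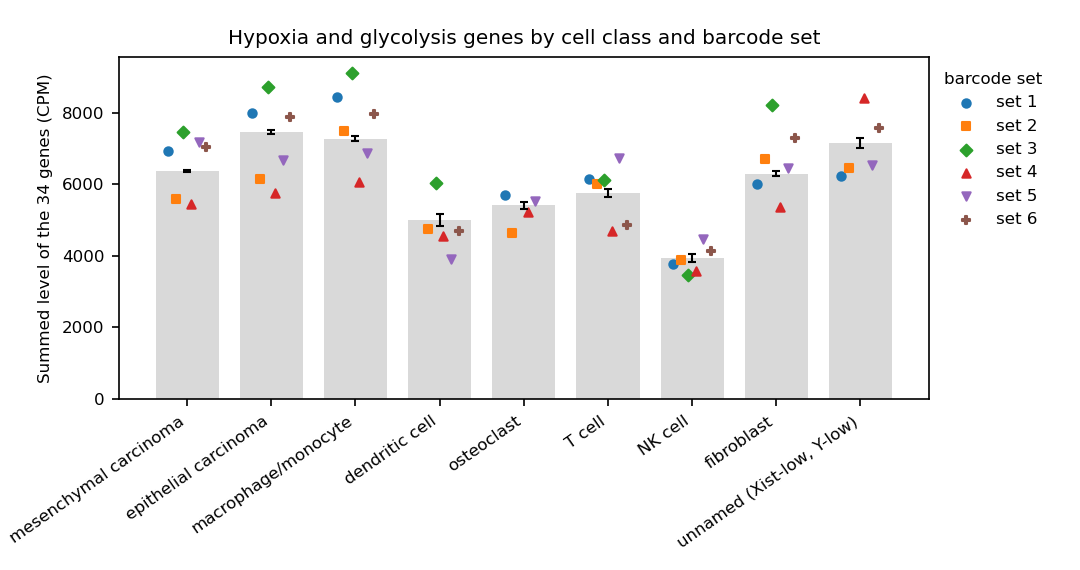
Summed level of the 34 genes (CPM, linear axis from 0) in the 9 classes with at least 20 cells in 4 or more barcode sets. Grey bars are the pooled value with its exact 95% Poisson interval, and each marker is 1 barcode set. Macrophage-like cells lie between 6060 and 9099 CPM over the sets and NK cell-like cells between 3469 and 4474 CPM.

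The barcode sets spread more than the counting intervals. Across the 6 sets the mesenchymal carcinoma-like sum was lowest at 5458 CPM (set 4) and highest at 7445 CPM (set 3), with 5590, 6939, 7041 and 7190 CPM between them. Set 4 was also lowest in epithelial carcinoma-like (5763 CPM), macrophage-like (6060 CPM) and fibroblast-like cells (5357 CPM), and set 3 was highest in these classes (8702, 9099 and 8203 CPM). Within a set, macrophage-like cells exceeded mesenchymal carcinoma-like cells in 5 of 6 sets, as did epithelial carcinoma-like cells, set 5 being the exception for both. NK cell-like cells lay under mesenchymal carcinoma-like cells in all 6 sets. The plot of summed levels by class shows these shifts of sets 3 and 4 in the classes just named, but not in all classes plotted. NK cell-like cells were lowest in set 3 (3469 CPM), and the unnamed class was highest in set 4 (8410 CPM). T cell-like cells were lowest in set 4 (4694 CPM) but highest in set 5 (6721 CPM). Dendritic cell-like cells were highest in set 3 (6037 CPM) but lowest in set 5 (3900 CPM). Osteoclast-like cells were lowest in set 2 (4638 CPM). Whether the shifts come from tumors, treatment or handling cannot be told apart here.

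Against mesenchymal carcinoma-like cells, the macrophage-like and fibroblast-like classes differed more in the 14 genes outside the path than in the 20 path genes. The 14 genes summed to 1117 CPM in mesenchymal carcinoma-like cells, 1828 CPM in macrophage-like cells and 1829 CPM in fibroblast-like cells. In each of the 6 sets both classes exceeded the mesenchymal carcinoma-like cells: macrophage-like cells ranged from 1349 to 2884 CPM, fibroblast-like cells from 1326 to 3076 CPM and mesenchymal carcinoma-like cells from 811.5 to 1393 CPM. The path genes summed to 5253 CPM in mesenchymal carcinoma-like cells, 5448 CPM in macrophage-like cells and 4457 CPM in fibroblast-like cells. For path genes macrophage-like cells were higher in 4 of 6 sets and fibroblast-like cells in 1 of 6. The unnamed class was the reverse, with 6669 CPM of path genes and 492.4 CPM of the other 14.

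Glucose enters through Slc2a1 (Glut1), the widespread transporter, and Slc2a3 (Glut3), a high-affinity transporter of neurons and leukocytes. Over the 6 sets, Slc2a1 in epithelial carcinoma-like cells had a lowest value of 98.13 CPM, a median of 157.1 and a highest of 211.7, and in mesenchymal carcinoma-like cells 47.52, 80.57 and 100.6 CPM. Epithelial values were higher within each of the 6 sets, although the ranges touch. Pooled, Slc2a1 stood at 160.6 CPM (152.1 to 169.5) in epithelial carcinoma-like cells, 2.06-fold over all other cells, and the next class, macrophage-like cells, had 127.8 CPM.

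Slc2a3 (chr6:122727809-122801640 on mm10) was scarce in both carcinoma classes and higher in T cell-like, NK cell-like, neutrophil-like and pericyte-like cells. Endothelial-like cells held only 1 count of it. In T cell-like cells its lowest, median and highest values over the sets were 25.56, 55.17 and 100.8 CPM, against 0.4107, 0.5626 and 1.752 CPM in mesenchymal carcinoma-like cells, with no overlap. NK cell-like cells ranged from 26.51 to 75.53 CPM, with a median of 34.66. Pooled, T cell-like cells had 66.07 CPM (54.40 to 79.49), 28.9-fold over all other cells, and NK cell-like cells 41.63 CPM, 15.4-fold. Neutrophil-like cells had the highest level, 148.2 CPM (107.2 to 199.6) from 43 counts. That value rests on barcode set 6, since the fold of 53.8 was 15.0 without it. It was 97.5 when cells with a Xist count were left out of all classes but the carcinoma ones, 124 when cells with high doublet scores were left out and 109 with wider cell limits. The interval of pericyte-like cells, at 107.2 CPM (76.91 to 145.4), overlaps that of the neutrophil-like cells. Fibroblast-like cells had 17.79 CPM, 7.04-fold, which became 12.1-fold without the Xist-positive host cells. In dendritic cell-like cells the 12.35 CPM came from 8 counts, and the fold of 4.10 fell to 2.42 without set 3.

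Shares of cells give the same contrast for Slc2a3. After thinning to 1000 counts, 7.63% of T cell-like cells held a Slc2a3 count, against 0.0351% of mesenchymal carcinoma-like cells. The median depths before thinning were 1932 and 11400 counts. Of the joint counts of the pair of transporters, Slc2a3 made up 51.38% in T cell-like cells (46.15% to 64.71% over sets), 49.07% in NK cell-like cells, 15.06% in fibroblast-like cells, 1.833% in macrophage-like cells and 0.7046% in mesenchymal carcinoma-like cells. The T cell-like cells also held Xist at 260.7 CPM, against 1105 CPM in mesenchymal carcinoma-like cells. With Xist-positive cells left out of the classes other than carcinoma, the T cell-like fold of Slc2a3 was 38.9, that of Slc16a3 4.99 and that of Pfkp 2.88. The same step took the share of Eno2 in the counts of Eno1 and Eno2 from 1.739% to 0.5797%, and that of P4ha2 in the counts of P4ha1 and P4ha2 from 4.969% to 1.835%.

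Hexokinases trap glucose in the cell, and Hk2 is the inducible form. Hk2 in fibroblast-like cells had a lowest value of 191.8 CPM, a median of 234.6 and a highest of 276.7 over the sets, all above the mesenchymal carcinoma-like range of 77.36 to 121.7 CPM. Pooled it reached 221.9 CPM (208.9 to 235.6) there, and the next class, epithelial carcinoma-like cells, had 126.2 CPM. Hk1, the constitutive form, showed no such step, and its 2 highest classes, mast or basophil-like (77.77 CPM) and endothelial-like (74.48 CPM), had overlapping intervals. Hk2 accordingly took 86.12% of the joint hexokinase counts in fibroblast-like cells (81.58% to 89.55% over sets), 69.04% in mesenchymal carcinoma-like cells, 42.05% in NK cell-like cells and 10.00% in the unnamed class, where it had only 3.605 CPM.

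Phosphofructokinase commits sugar to glycolysis, and Pfkfb3 makes its activator fructose-2,6-bisphosphate. Pfkfb3 in macrophage-like cells had a lowest value of 25.60 CPM, a median of 49.57 and a highest of 80.17 over the sets, clear of the mesenchymal carcinoma-like range of 4.397 to 9.274 CPM. Pooled it was 51.66 CPM, 6.10-fold over all other cells, and it was higher still in endothelial-like cells (93.71 CPM, 9.72-fold) and dendritic cell-like cells (83.36 CPM, 8.73-fold, or 32.9-fold under stricter cell limits). Pericyte-like cells had 41.83 CPM, 4.27-fold. Pfkp, the platelet-type subunit, stood highest in dendritic cell-like cells at 260.9 CPM, followed by T cell-like (161.6 CPM, 2.51-fold) and NK cell-like cells (139.8 CPM, 2.16-fold). Pfkp made up 92.86% of the counts of Pfkl and Pfkp in dendritic cell-like cells and 69.02% in mesenchymal carcinoma-like cells. In B or plasma cell-like cells the fold of 2.10 for Pfkp came from 19 counts and was 0.982 when cells were gated one by one. Pfkl, the liver-type subunit, was highest in epithelial carcinoma-like cells at 38.19 CPM, with an interval that overlaps the next class.

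Gapdh, which oxidises glyceraldehyde-3-phosphate, Tpi1, the triose isomerase, Pgam1, the mutase, Eno1, the enolase, and Pkm, pyruvate kinase, were each highest in the unnamed class. Gapdh stood at 2342 CPM there and at 1459 CPM in mesenchymal carcinoma-like cells, whose sets ran from 1314 to 1940 CPM. Pgam1 had 901.9 CPM in the unnamed class and 762.4 CPM in mesenchymal carcinoma-like cells, its next class. Aldoa, the main aldolase, was highest in osteoclast-like cells at 532.0 CPM. Gpi1, the phosphoglucose isomerase, was highest in macrophage-like cells at 220.3 CPM, with an interval that overlaps osteoclast-like cells. Pgk1, the first ATP-yielding enzyme, was 524.4 CPM in macrophage-like cells and higher there than in mesenchymal carcinoma-like cells in 6 of 6 sets (404.5 to 712.4 CPM against 295.4 to 422.6 CPM, ranges that overlap). Counts of Gapdh, Eno1 and Aldoa can be split with near-identical copies, so their levels are uncertain in that respect.

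Aldoc and Eno2, the brain-type aldolase and enolase, were scarce. Aldoc in epithelial carcinoma-like cells had a lowest value of 7.182 CPM, a median of 16.16 and a highest of 37.24 over the sets, higher than in mesenchymal carcinoma-like cells in 5 of 6. Its pooled 25.74 CPM was 3.89-fold over all other cells, a fold of 2.65 without set 3 and 2.24 when cells were gated one by one. Aldoc took 6.181% of aldolase counts in epithelial carcinoma-like and 2.313% in mesenchymal carcinoma-like cells. Eno2 was highest in mast or basophil-like cells, where 4 counts gave 16.37 CPM and a fold of 3.93. That fold ran from 2.54 without set 4 to 8.36 without set 2.

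Ldha turns pyruvate into lactate, Pdk1 holds pyruvate back from the mitochondrion, and Slc16a3 (Mct4) exports lactate. Ldha was highest in epithelial carcinoma-like cells (783.8 CPM) and lower in macrophage-like cells than in mesenchymal carcinoma-like cells in all 6 sets (394.0 to 558.8 CPM against 547.3 to 811.0 CPM). Slc16a3 (chr11:120948480-120960868 on mm10) showed the opposite. In macrophage-like cells its lowest, median and highest values were 109.0, 159.0 and 178.3 CPM, and in mesenchymal carcinoma-like cells 1.044, 3.042 and 9.196 CPM, with no overlap. Pooled, it was 149.8 CPM (138.8 to 161.4), 23.4-fold over all other cells, or 15.2-fold when cells were gated one by one. Neutrophil-like cells had 158.5 CPM, 14.6-fold, and 32.1-fold without cells of high doublet score. Dendritic cell-like cells followed at 77.18 CPM (7.13-fold), pericyte-like cells at 73.20 CPM (6.68-fold, 4.41-fold without set 1), fibroblast-like cells at 47.78 CPM (4.87-fold, 7.33-fold without Xist-positive host cells) and T cell-like cells at 41.29 CPM (3.84-fold). Mesenchymal carcinoma-like cells were the lowest class for Slc16a3, at 2.717 CPM. Pdk1 was highest in endothelial-like cells at 64.87 CPM, with an interval that overlaps osteoclast-like cells.

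**Figure D2:**
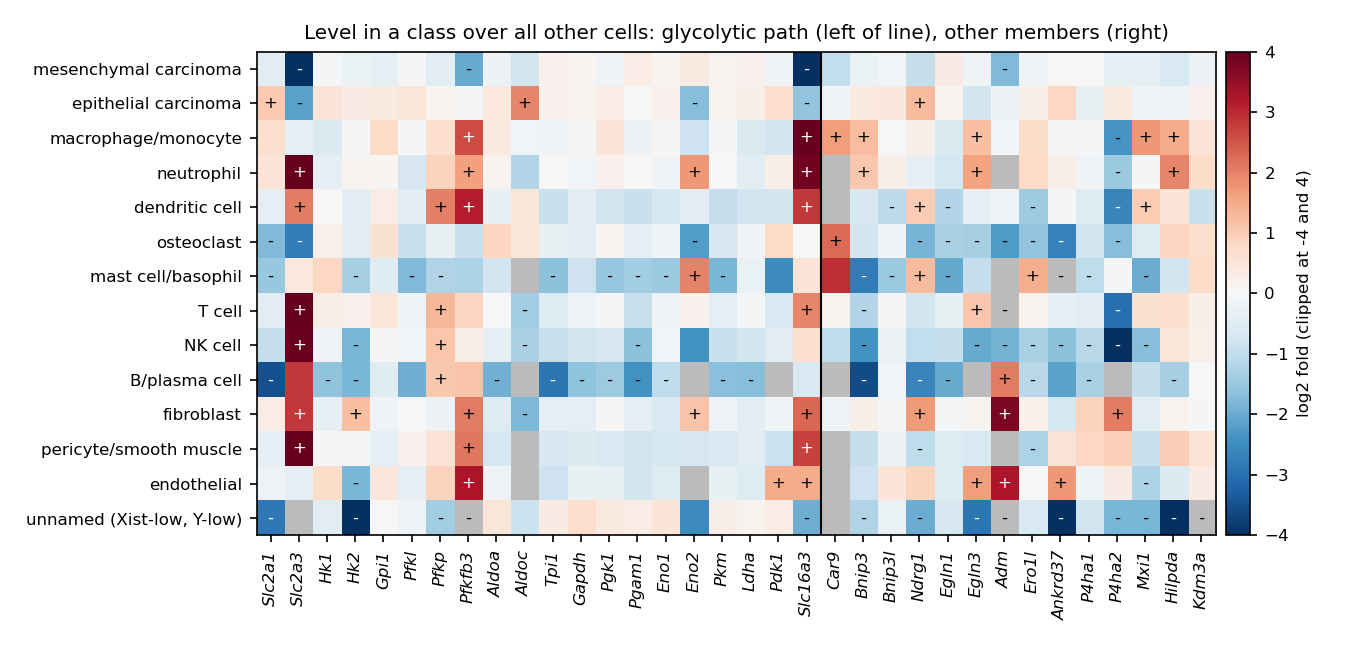
Fold of each gene in a class over all other cells, on a log2 colour scale clipped at 4 in either direction, with the 20 path genes left of the line and the other 14 right of it. Plus marks a fold of 2 or more with over 3 counts in the class, minus a fold of 0.5 or less, and grey a gene with no count in the class. Slc2a3, Pfkfb3 and Slc16a3 are low in mesenchymal carcinoma-like cells and marked plus in several host classes, and Gapdh, Pgk1, Pgam1 and Pkm carry no mark in the carcinoma, macrophage-like and fibroblast-like classes.

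Among the 14 genes outside the path, Car9, a membrane carbonic anhydrase that exports acid, was nearly absent, with 223 counts in all. Its highest fold among the classes with over 3 counts was in osteoclast-like cells (7.239 CPM, 16 counts, 4.82-fold). Mesenchymal carcinoma-like cells had 1.327 CPM.

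Bnip3 and its paralog Bnip3l (Nix) sit on the outer mitochondrial membrane and call in mitophagy. Bnip3 (chr7:138890836-138909519 on mm10) in macrophage-like cells had a lowest value of 118.6 CPM, a median of 201.2 and a highest of 311.4 over the sets, all above the mesenchymal carcinoma-like range of 42.42 to 116.6 CPM. Pooled it was 193.8 CPM (181.3 to 207.0) there and 182.6 CPM in neutrophil-like cells, with overlapping intervals. Bnip3l moved less: its highest class, endothelial-like cells, had 209.0 CPM and mesenchymal carcinoma-like cells 145.3 CPM. Bnip3l therefore took 43.34% of the joint counts in macrophage-like cells (38.14% to 50.00% over sets), 63.84% in mesenchymal carcinoma-like cells and 88.40% in NK cell-like cells.

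Egln1 and Egln3 are the oxygen sensors that mark HIF for destruction, and Egln3 is known as a HIF target itself. Egln1 was highest in epithelial and mesenchymal carcinoma-like cells, at 125.6 and 122.0 CPM with overlapping intervals. It was called lower in dendritic cell-like, osteoclast-like, mast or basophil-like and B or plasma cell-like cells, and was lowest in mast or basophil-like cells (28.65 CPM). Egln3 in macrophage-like cells had a lowest value of 12.55 CPM, a median of 38.23 and a highest of 140.8, higher than in mesenchymal carcinoma-like cells within 6 of 6 sets, with ranges that overlap (10.03 to 23.21 CPM). The share of Egln3 in the joint counts was 30.61% in macrophage-like cells (19.57% to 53.23% over sets) and 11.27% in mesenchymal carcinoma-like cells.

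Mxi1, a Myc antagonist, and Hilpda, which coats lipid droplets and blocks their breakdown, were both called higher in macrophage-like cells. Mxi1 in macrophage-like cells had a lowest value of 267.3 CPM, a median of 296.4 and a highest of 462.8, clear of the mesenchymal carcinoma-like range of 64.10 to 109.7 CPM. Pooled it was 301.7 CPM (286.0 to 318.0), 3.35-fold over all other cells, and dendritic cell-like cells came next at 196.0 CPM. Hilpda (chr6:29272488-29275446 on mm10) in macrophage-like cells had a lowest value of 315.2 CPM, a median of 442.6 and a highest of 545.1, above the mesenchymal carcinoma-like range of 102.9 to 239.2 CPM. Neutrophil-like cells had more, 627.2 CPM (539.4 to 725.2), a fold of 3.90 that was 2.48 without set 6 and 6.95 without cells of high doublet score. In the unnamed class Hilpda was down to 4.326 CPM. Kdm3a, a histone demethylase and HIF target, and Ankrd37, an ankyrin-repeat protein, were low. Ankrd37 was highest in endothelial-like cells at 105.7 CPM, 3.35-fold.

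P4ha1 and P4ha2 are alpha subunits of the prolyl hydroxylase that stabilises collagen. Their highest class was fibroblast-like, with 230.4 and 141.7 CPM, and for P4ha1 the interval overlaps that of pericyte-like cells (222.2 CPM). P4ha2 in fibroblast-like cells had a lowest value of 105.2 CPM, a median of 140.2 and a highest of 269.6, clear of the mesenchymal carcinoma-like range of 27.00 to 44.28 CPM. The share of P4ha2 in the joint counts was 38.08% in fibroblast-like cells (34.88% to 43.95% over sets), 22.36% in mesenchymal carcinoma-like cells and 6.014% in macrophage-like cells (11.69% when cells were gated one by one). Adm, the vasodilator peptide adrenomedullin, had a lowest value of 51.96 CPM, a median of 71.54 and a highest of 264.1 in fibroblast-like cells and 2.140 to 7.800 CPM in mesenchymal carcinoma-like cells. Pooled it was 81.29 CPM in fibroblast-like cells, 13.5-fold, and 79.29 CPM in endothelial-like cells, 9.41-fold, with overlapping intervals. In B or plasma cell-like cells the fold of 4.20 came from 5 counts, and without set 6 there were none.

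Ndrg1, a stress-induced cytoplasmic protein, was highest in fibroblast-like cells at 544.4 CPM. In epithelial carcinoma-like cells its lowest, median and highest values were 215.7, 346.6 and 510.1 CPM, clear of the mesenchymal carcinoma-like range of 124.8 to 202.2 CPM, and the pooled fold of 2.38 was 1.93 without set 3 and 1.32 when cells were gated one by one. Mast or basophil-like cells had 433.9 CPM, 2.42-fold. Ero1l, the oxidase that drives disulfide bonds in the endoplasmic reticulum, was highest in mast or basophil-like cells at 376.6 CPM, 2.72-fold. It was higher in macrophage-like than in mesenchymal carcinoma-like cells within 6 of 6 sets, with medians of 241.0 and 132.5 CPM.

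**Figure D3:**
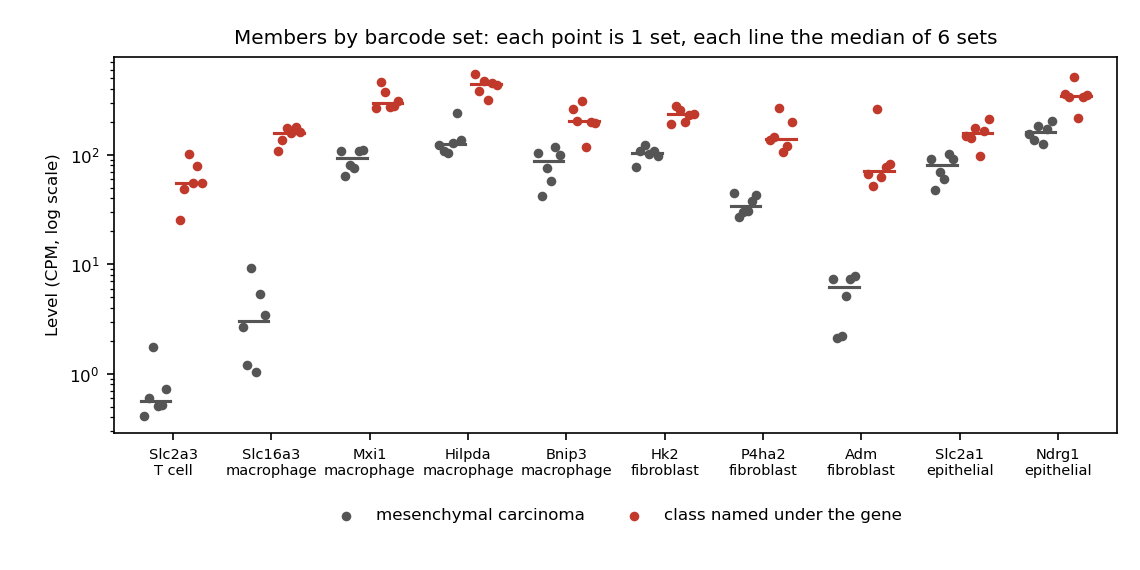
Level (CPM, log axis) of 10 genes in mesenchymal carcinoma-like cells (grey) and in the class named under each gene (red), 1 point per barcode set with the median as a line. The groups do not overlap for 9 of the 10 genes, and for Slc2a1 the ranges touch between 98.13 and 100.6 CPM. The genes were picked for a high level in the class shown, so this separation follows in part from the choice. Ranges overlap for other members, such as Egln3 and Pgk1 in macrophage-like cells.

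Counted over the list, a member was called higher in a class at a fold of 2 or more over all other cells and lower at 0.5 or less. Because mesenchymal carcinoma-like cells held most counts, the fold of any other class is largely a fold over them. Macrophage-like cells had 7 members higher (Pfkfb3, Slc16a3, Car9, Bnip3, Egln3, Mxi1 and Hilpda) where 13.5% of 14472 genes were, and 1 lower (P4ha2, and 2 lower without set 4 or 6) where 33.4% were. The members' median fold was 1.02 there, against 0.618 over all genes. Fibroblast-like cells had 8 members higher (Slc2a3, Hk2, Pfkfb3, Eno2, Slc16a3, Ndrg1, Adm and P4ha2) where 8.99% of genes were, and Aldoc lower where 9.89% were. Neutrophil-like cells had 7 higher (Slc2a3, Pfkfb3, Eno2, Slc16a3, Bnip3, Egln3 and Hilpda) with a background of 6.53%, and 1 lower with 5.51%. Without barcode set 6 the neutrophil-like count was 3, and the lower count lay between 0 (without set 4) and 2 (without set 1 or 6). These cells held Xist at 768.5 CPM. With Xist-positive cells left out, 9 members were higher, and the folds of Slc16a3 and Hilpda were 25.9 and 6.66.

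Carcinoma classes had few calls. Mesenchymal carcinoma-like cells had none higher where 6.56% of genes were and 4 lower (Slc2a3, Pfkfb3, Slc16a3 and Adm) where 15.7% were, so neither count was above the background. Epithelial carcinoma-like cells had 3 higher (Slc2a1, Aldoc and Ndrg1) where 6.52% were, a count of 1 without set 3 and 1 when cells were gated one by one. They had 3 lower (Slc2a3, Eno2 and Slc16a3) where 14% of genes were, a count of 5 without set 3. The members' median fold was 0.869 in mesenchymal carcinoma-like cells, against 1.07 over all genes, and 1.13 in epithelial carcinoma-like cells, against 0.928.

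Dendritic cell-like cells had 6 members higher (background 11.1%), among them Slc2a3, Pfkp, Pfkfb3, Slc16a3, Ndrg1 and Mxi1. They had 4 lower (21.3%), which became 10 without set 3. T cell-like cells had 4 higher (Slc2a3, Pfkp, Slc16a3 and Egln3, background 12.8%) and 4 lower (17.7%). NK cell-like cells had 2 higher, Slc2a3 and Pfkp (11.5%, a count of 1 without set 6), and 11 lower (22.8%), with a median fold of 0.53 against 0.709 over all genes. Osteoclast-like cells had 1 higher, Car9 (10.0%, a count of 2 without set 5), and 10 lower (22.3%). Endothelial-like cells had 6 higher (Pfkfb3, Pdk1, Slc16a3, Egln3, Adm and Ankrd37, background 12.0%) and 2 lower (8.68%, a count of 5 without Xist-positive cells). Pericyte-like cells had 3 higher (Slc2a3, Pfkfb3 and Slc16a3, background 9.13%) and 2 lower (7.90%). Without set 3 or set 5 the pericyte-like counts were 5 and 1, and the lower count was 5 without set 1 and 4 without set 4.

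Mast or basophil-like cells had 3 higher (5.35%) and 15 lower (13.7%), the latter 9 without set 2. B or plasma cell-like cells had 2 higher (6.94%, a count of 1 without set 2, 4 or 6) and 17 lower (8.35%), the latter 4 under stricter cell limits. The unnamed class had none higher (0.850%) and 14 lower (40.7%). The map of folds by class shows more lower calls in each of these classes than in any other. Lower calls did not track class size or depth alone. The small or shallow neutrophil-like and macrophage-like cells had 1 each, and endothelial-like and pericyte-like cells 2 each. The part of depth and RNA quality in the lower calls was not tested.

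Other genes of the same pathways, in lists of their own, were counted by the same rule and are read against the background shares of each class. Of 8 measured genes of oxygen sensing, Hif1a, the HIF alpha subunit, was the only one higher in macrophage-like cells, near the background of 13.5%. It had 819.3 CPM there, 2.90-fold, against 277.7 CPM in mesenchymal carcinoma-like cells. T cell-like cells had 3 of 8 higher, with a background of 12.8%. These were Hif1a (831.7 CPM, 2.83-fold), Epas1, the HIF-2 alpha subunit (40.11 CPM, 8.87-fold), and Hif1an, which blunts HIF activity (37.75 CPM, 2.34-fold). Epas1 was 371.2 CPM in pericyte-like cells (94.0-fold), 257.1 CPM in endothelial-like cells (61.2-fold) and 0.6994 CPM in mesenchymal carcinoma-like cells. Of 13 other glycolytic genes, Hk3, the myeloid hexokinase, reached 30.60 CPM in macrophage-like cells, 57.6-fold. Slc2a6, a lysosomal sugar transporter, had 5.209 CPM there, 25.2-fold. These were the only 2 of the 13 called higher, near the background of 13.5%, and 5 were lower, near the background of 33.4%. Of 19 other hypoxia-responsive genes, macrophage-like cells had 3 higher and 7 lower, shares near the background of 13.5% and 33.4%. The 3 were Ppfia4 (18.67 CPM, 33.3-fold), the growth factor Pgf (41.89 CPM, 3.04-fold) and the lipid droplet gene Plin2 (685.6 CPM, 4.06-fold). Fibroblast-like cells had 4 of 19 higher, led by Lox, the collagen cross-linking oxidase (720.2 CPM, 18.7-fold), and none lower, with backgrounds of 8.99% and 9.89%. Mesenchymal carcinoma-like cells had Angptl4 (79.67 CPM, 2.26-fold) and Stc2 (10.57 CPM, 3.51-fold) higher and 3 of 19 lower. The backgrounds there were 6.56% higher and 15.7% lower, and the lower count was near its background.

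Osteoclast-like cells stood apart on the mitochondrial side. Of 81 measured genes of oxidative phosphorylation, 62 were higher there (background 10.0%), with a summed level of 44860 CPM against 18250 CPM in mesenchymal carcinoma-like cells. Of 6 genes that bring pyruvate into the mitochondrion or regulate its oxidation, 4 were higher (Pdhb, Pdk2, Mpc1 and Mpc2). The 34 members had a median fold of 0.741 in the same cells, against 0.751 over all genes.

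Mesenchymal carcinoma-like cells split into 7 clusters that differed in the members. The sum was highest, 7909 CPM, in the cluster led by Nefl and Prl2c3, and 7482 CPM in the cluster led by interferon-induced genes. The cluster of Tac1 and Tslp had 6353 CPM, that of Smoc2 and Abcg2 6055 CPM and the mitotic cluster 5908 CPM. The lowest sums were in the cluster with fibroblast-like matrix genes (4808 CPM) and in the cluster led by stress genes such as Hspa1a and Fos (4539 CPM). Those 2 clusters also held the most Malat1 (28070 and 34310 CPM against 9037 CPM in the mitotic cluster) and the fewest counts per cell (medians of 7876 and 4489), and the part of depth and RNA quality in their sums was not tested.

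Path genes and the other 14 did not change in step between clusters. The mitotic cluster had 5120 CPM of path genes, near the 5210 CPM of the Tac1 and Tslp cluster, yet 788.1 CPM of the other 14, against 1143 CPM. Its lower calls were 7 members, Pfkfb3, Aldoc, Eno2, Car9, Bnip3, Ero1l and P4ha2 (background 7.43% of 13305 genes), with Bnip3 at 46.88 CPM and Ero1l at 64.82 CPM. The members' median fold was 0.722 there, against 0.922 over all genes. The matrix cluster had 3707 CPM of path genes, the lowest value, with 1101 CPM of the other 14. It had Hk2 (179.5 CPM, 2.10-fold), Pfkfb3 (18.07 CPM, 4.21-fold) and Eno2 (9.513 CPM, 2.64-fold) higher (8.49%) and Car9 and Adm lower (7.51%). Its Gapdh was 863.5 CPM, a fold of 0.558, its Eno1 180.5 CPM, a fold of 0.546, and its Ldha 461.8 CPM, a fold of 0.647, none of which passed the fold asked.

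The cluster led by Nefl and Prl2c3 had 3 members higher, Car9 (2.656 CPM, 2.68-fold), Ero1l (247.7 CPM, 2.31-fold) and Adm (9.783 CPM, 2.03-fold), where 0.669% of genes were. The members' median fold was 1.33, against 0.956. Its Bnip3 stood at 131.0 CPM, a fold of 1.87, and Pgk1 at 479.8 CPM, a fold of 1.43. The interferon cluster had Slc16a3 higher (6.085 CPM, 2.63-fold, background 2.59%), with Bnip3 at 141.3 CPM, a fold of 1.88, and a median fold of 1.26 against 0.963. The stress cluster had Bnip3, Egln3 and Ankrd37 lower (2.47%), and the Smoc2 and Abcg2 cluster had Adm lower (6.79%).

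Within mesenchymal carcinoma-like cells the path genes and the other 14 varied together from cell to cell. Each cell was thinned to 5000 counts, which kept 7461 cells and left out 1112. Cells were ranked by the 14 genes outside the path, and the 2086 cells with at most 2 of their counts were set against the 1590 cells with at least 8. The 20 path genes, which took no part in the ranking, rose from 20.6 to 39.8 counts per cell, a fold of 1.94 (1.91 to 1.96). In the 6 barcode sets the fold was 2.09, 1.47, 1.69, 2.02, 1.89 and 1.65. All sets went the same way, with set 2 lowest and set 1 highest, and each of the 7 clusters did too (1.51 to 2.11).

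Of the 15 path genes with counts in at least 5% of cells, 10 were at 2-fold or more, where 0.928% of 7868 genes outside the ranking were. The glucose transporter Slc2a1 went from 19.2 to 103 counts per 100 cells, a fold of 5.36 (4.80 to 5.99). Pdk1 followed at 4.23, Pfkl at 3.86, Pfkp at 2.66, Pgk1 at 2.65 (122 to 323 counts per 100 cells) and Gpi1 at 2.49. Hk1, Aldoa, Pgam1 and Ldha lay between 2.02 and 2.08, with Ldha going from 259 to 523 counts per 100 cells. Tpi1 (1.99), Gapdh (1.72), Eno1 (1.71), Hk2 (1.65) and Pkm (1.47) lay below 2. Of the 5 scarcer path genes, Slc16a3 had a fold of 6.89 from 12 and 63 counts, 4.31 without set 5, Aldoc 4.76 and Pfkfb3 2.28. Eno2 (1.22) and Slc2a3 (0.835, from 11 and 7 counts) had intervals that include 1. Among the 15, Slc2a1 and Pdk1 thus had the largest folds, and the abundant Gapdh and Pkm stayed below 2.

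The reverse ranking gave larger folds. Cells with at most 15 counts of the path genes (1517) were set against those with at least 34 (1512). The 14 other genes went from 3.73 to 13.1 counts per cell, a fold of 3.50 (3.40 to 3.61). In the 5 sets with enough cells the fold was 4.08, 1.91, 3.41, 3.38 and 2.93, again lowest in set 2. Of the 12 genes measured in 5% of cells, 10 were at 2-fold or more, where 1.04% of 7865 genes were. Bnip3 went from 10.9 to 149 counts per 100 cells, a fold of 13.6 (11.6 to 16.1), Ero1l from 24.1 to 255, a fold of 10.6, and Ankrd37 had 10.5. Egln1 (4.47), Egln3 (4.00), P4ha2 (3.42), Mxi1 (2.89), Hilpda (2.89), P4ha1 (2.43) and Bnip3l (2.06) followed, and Ndrg1 (1.84) and Kdm3a (1.38) lay below 2. Of the scarcer genes, Adm had 10.7 and Car9 43.1, from 1 and 43 counts. The fold of Car9 was 14.3 without set 3, 23.1 without set 1 and 28.0 without set 5. Without the cluster highest on the members, Ero1l fell to 6.57 and Adm to 6.09.

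**Figure D4:**
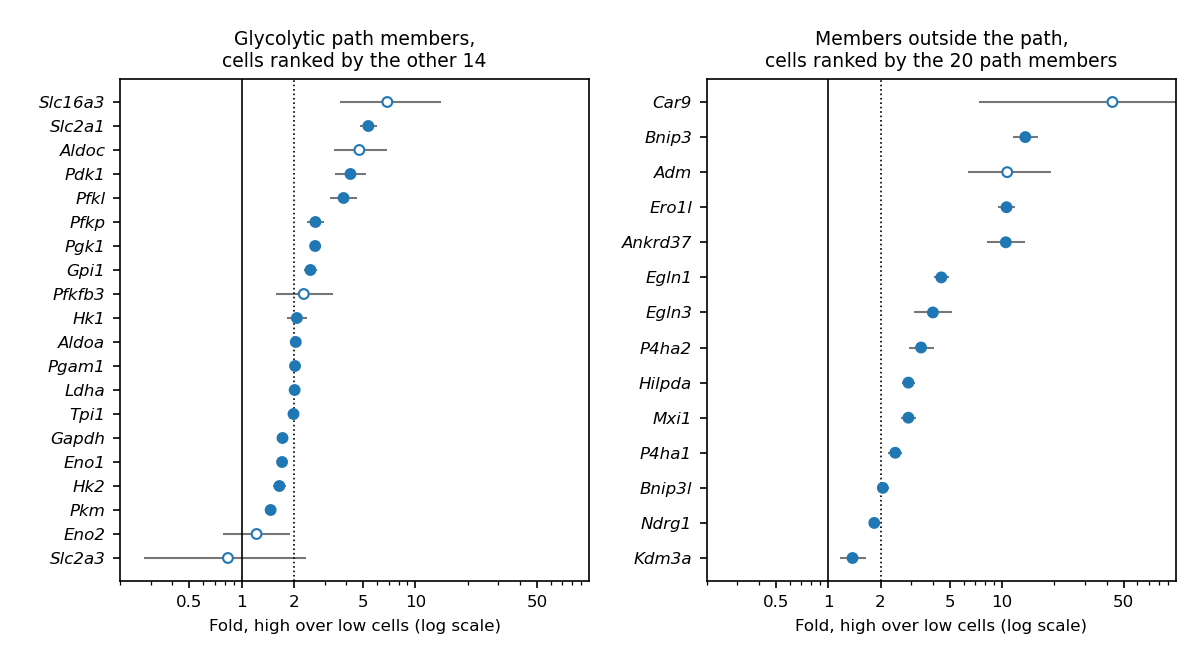
Fold of each member between high and low mesenchymal carcinoma-like cells at 5000 counts (log axis, bars are 95% counting intervals, dotted line at 2, the bar of Car9 is cut at the edge). Left, path genes in cells ranked by the other 14, and right, the other 14 in cells ranked by the path genes. Open points are genes with counts in under 5% of cells. Slc2a1 (5.36) and Bnip3 (13.6) lead the well-measured genes of their panels.

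Values of depth, RNA quality and cell cycle moved with these rankings. In the ranking by the other 14, low and high cells had median depths of 13170 and 11770 counts, mitochondrial shares of 2.66% and 2.29%, and 80.1 and 97.9 Malat1 counts and 11.6 and 8.82 counts of stress genes per cell. In the ranking by path genes the depths were 9519 and 13280, the mitochondrial shares 3.09% and 2.17%, Malat1 135 and 76.7, and stress genes 14.5 and 7.35 counts per cell. Mitochondrial share and stress genes thus fell with both rankings, while depth and Malat1 fell with one and rose with the other. Without the cluster led by stress genes the folds were 1.93 and 3.46, and the part of the other values was not tested. Mitotic genes had a fold of 0.416 and S phase genes 0.522 in cells high in the other 14, but 1.27 and 1.10 in cells high in path genes.

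Oxidative phosphorylation genes did not follow the members. Their sum was 95.7 counts per cell in cells low in the other 14 and 80.3 in high cells, a fold of 0.839 (0.834 to 0.845), and 80.8 and 87.3 in the ranking by path genes, a fold of 1.08. Pyruvate genes had 0.928 and the other glycolytic genes 0.867 in the first ranking. The other hypoxia-responsive genes rose with both rankings, by 1.95 and 1.80. Of the 15 genes of that list measured in 5% of cells, 7 were at 2-fold or more in the first ranking, where 0.928% of 7868 genes were. Higd1a, a mitochondrial hypoxia-induced protein, had 3.90, Fam162a 3.77, the adenylate kinase Ak4 4.61, the glycogen genes Gys1 and Gbe1 3.95 and 2.54, the collagen lysyl hydroxylase Plod2 2.22 and Plin2 2.11. Vegfa, the angiogenic factor, had 1.78. None of 6 oxygen-sensing genes was at 2-fold, Hif1a having 1.37.

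Pairwise, the members correlated weakly and, for most pairs, positively. Over the 27 members with counts in 5% of cells, the median r of the 351 pairs was 0.123 (each r is the median over the 6 sets, and the median over pairs ran from 0.0591 to 0.162 between sets). At 2500 counts per cell the median was 0.0793. Of these pairs 63.2% had an r of 0.1 or more, against 0.412% of the pairs of 7880 genes, whose median r was 0.000185. These r are across cells that share libraries, and depth was equal by thinning. Bnip3 and Ero1l had the highest r, 0.446, followed by Gapdh with Ldha (0.371), Gapdh with Pgam1 (0.355), Pgk1 with Bnip3 (0.355) and Slc2a1 with Bnip3 (0.350). Among these pairs, Bnip3 was joined with the endoplasmic reticulum, the glucose transporter and the lower path. The remaining pairs joined Gapdh with other path genes. The summed path genes and the summed other 14 correlated at 0.655 over all cells and at 0.357 to 0.727 within sets.

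Among the measured members, Hk2 and Kdm3a followed the sum of the others least. Of the 8 pairs with a median r under 0, 6 involved Hk2, which had -0.0592 with Eno1 and -0.0573 with Gapdh. These 6 were all with path genes. With the measured genes outside the path, Hk2 had a median r above 0, up to 0.118 with Ndrg1. Against the sum of the other members the r of Hk2 was -0.00481 and that of Kdm3a 0.0388, where Bnip3 had 0.546 (0.367 to 0.602 over sets), Gapdh 0.529, Pgk1 0.493, Pgam1 0.484, Ldha 0.481 and Ero1l 0.457. The Hk2 promoter printed above holds 2 ACGTG matches, as does that of Pgk1.

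**Figure D5:**
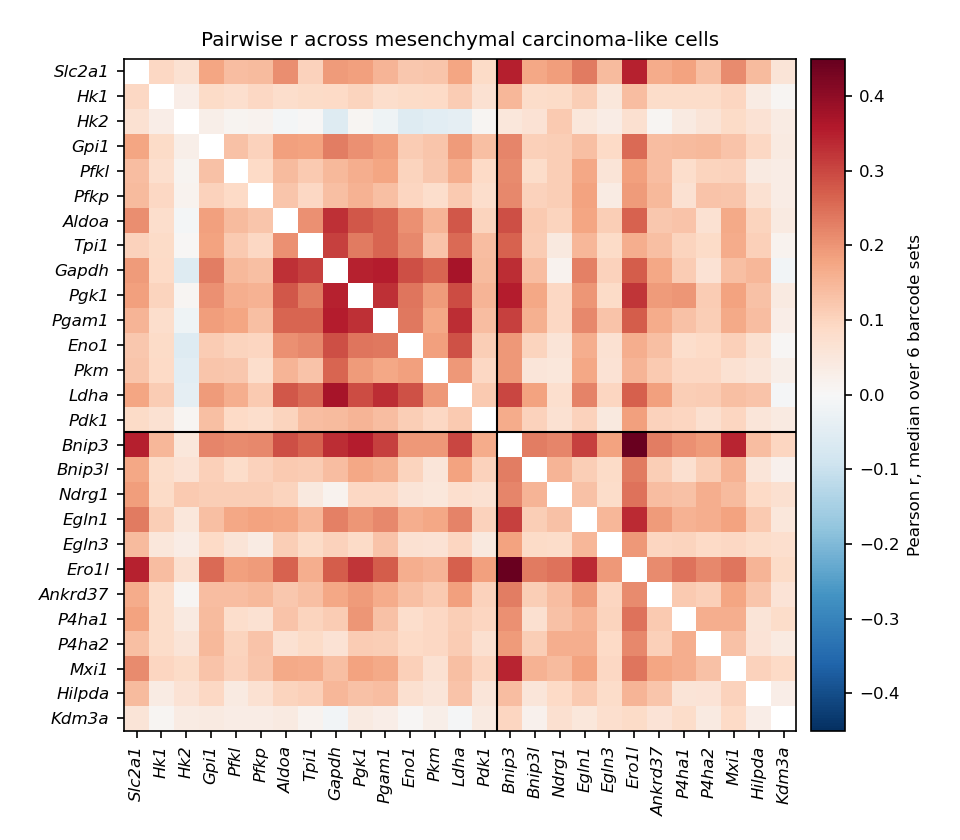
Pearson r between each pair of the 27 members measured in 5% of mesenchymal carcinoma-like cells at 5000 counts, as the median over 6 barcode sets, with path genes above and left of the lines. Nearly all squares are above 0. Hk2 lies between -0.0592 and 0.0683 with the path genes and between 0.0102 and 0.118 with the other genes. The square of Bnip3 and Ero1l is the highest at 0.446.

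Genes outside the list that followed the summed members most closely were Mif (r 0.507), a secreted cytokine, Fam162a (0.469) and Higd1a (0.430). They ranked within the first 9 of 7880 genes, of which 15 of the first 20 were members. The next were Tmsb10 (0.316), Anxa2 (0.289), Fau (0.280), Lgals3 (0.274), Actg1 (0.270), Tpt1 (0.263) and Prelid2 (0.262). Of the 10 genes named, 6 were among the first 10 at 2500 counts and 6 at 10000 counts. The median r of all genes was -0.00935, and 2.91% had 0.1 or more. Of the 10 genes named, Prelid2 had the largest fold between cells low and high in the other 14, at 9.81 (2.11 to 20.7 counts per 100 cells). Several others hardly differed, at 1.08 for Tmsb10, 1.14 for Actg1, 1.16 for Anxa2, 1.17 for Fau and 1.21 for Tpt1.

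The same within-cell pattern was measured in 2 more classes. In 615 epithelial carcinoma-like cells at 5000 counts, the path genes went from 21.6 to 49.7 counts per cell, a fold of 2.30 (2.20 to 2.41). Only set 3 had enough low and high cells for a fold of its own, 2.29, and it held 71 of the 129 high cells. Of 16 path genes measured in 5% of cells, 14 were at 2-fold or more, with a background of 5.72%. The low and high epithelial cells held 60.5 and 103 Malat1 counts, 18.4 and 14.9 counts of stress genes and 0.242 and 0.667 counts of macrophage markers per cell. Macrophage-like cells are shallow, so they were thinned to 1500 counts (1334 cells, 595 left out). Their path genes went from 5.79 to 12.9 counts per cell, a fold of 2.22 (2.12 to 2.33), and 1.90 to 2.45 over the 6 sets. Of 14 path genes, 10 were at 2-fold or more (background 2.84%), among them Slc2a1 at 4.88 and Pgk1 at 3.04. Slc16a3, high in these cells as a class, had a fold of 1.49 within them. At the same 1500 counts mesenchymal carcinoma-like cells had 1.74 (1.35 to 1.78 over sets), with 4 of 13 path genes at 2-fold or more (background 0.341%). The cut points differ between classes at this depth, so these folds are set side by side and not compared. In macrophage-like cells the fold of oxidative phosphorylation genes was 0.699. Low and high macrophage-like cells held 28.8 and 19.6 counts of macrophage markers and 5.44 and 3.53 counts of stress genes. Mitotic genes went from 0.350 to 0.0471 counts per macrophage-like cell, a fold of 0.135. In the epithelial carcinoma-like cells at 5000 counts they went from 2.88 to 0.566, a fold of 0.197. The part of these values in the folds of either class was not tested.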

How the data were processed

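The deposited matrix holds raw UMI counts (unique molecules per gene and cell) of 14818 barcodes. Per the submitters' processing notes it came from Cell Ranger 7.1 on mm10 with Seurat 4.1.0, while the file header names cellranger 7.0.0, and 12 tag rows were left out. The annotation, filters and demultiplexing behind the deposited counts are not given in the sources used here. Barcode sets stand for single values, since no label ties them to tumors, and the planned edgeR test of treated against vehicle tumors was not run for that reason.

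The cell filter asked for 500 genes or more and a mitochondrial share below 15%, which 13768 barcodes passed. Scrublet called 40 doublets (0.291%), too few to have worked, so 171 cells of a cluster with a median score of 0.2 or more were also set apart from the classes. Scanpy 1.11.5 clustered 13728 cells (3000 variable genes without the members, 40 components, 15 neighbours, Leiden resolution 1 with leidenalg 0.10.2), and clusters were named from marker lists. Folds used genes with at least 50 counts, and a count of 0 was raised to 3 before a gene was called lower. All members were named, and in each class the 3 with the largest folds of 2 or more, the pathway genes at 2-fold or more and the 10 outside genes that followed most closely. Correlations used log2(count + 1). The rule for naming clusters and the markers of mesenchymal carcinoma-like cells were chosen with earlier results of these data known. The members and other lists, though fixed by symbol, were also used with those results known. The scripts were tested on simulated data. Alternatives covered filters, doublets, resolution, gating, thinning depth, gene minimums and each barcode set.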

Additional observations from a re-analysis of the deposited data

How the results depend on the processing

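No paired analysis was possible because no label ties a barcode set to a tumor, so the fits with and without a replicate block, with other normalization or without a filter were not run. Alternatives on doublet scores, Xist-positive cells, single-cell means and the stress cluster were chosen after seeing the data. Leaving out 1 barcode set at a time, the summed CPM ran from 6156 to 6730 in mesenchymal carcinoma-like cells, from 6554 to 7799 in epithelial carcinoma-like cells and from 6935 to 7825 in macrophage-like cells. In the same order, stricter cell limits gave 6398, 8484 and 7130, gating cell by cell 6233, 7263 and 6716, and the median of the sets 6990, 7275 and 7720. Means of single cells gave 6080 and 7107 in the carcinoma classes. For epithelial and macrophage-like cells, resolution 2 gave 8260 and 6943, members among the variable genes 7302 and 6960, and doublet scores of 0.25 or more left out 7375 and 6828, and wider limits gave 8244 in epithelial cells. Both classes stayed above mesenchymal carcinoma-like cells in each of these pooled alternatives.

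The fold of path genes between cells low and high in the other 14 was 1.74 at 2500 counts, 1.84 at 10000, 1.66 without the cluster highest on the members, 2.37 for the lowest and highest 10% of the cells, and 1.72 to 2.00 without single sets. The reverse fold was 3.20 at 2500 counts, 2.73 without that cluster, 4.70 for the 10% bins, and 3.08 to 3.77 without single sets. The median pairwise r was 0.197 on unthinned counts, 0.155 at 10000 counts, 0.0793 at 2500 and 0.0975 without that cluster. Reversed were only the B or plasma cell-like folds of Adm, 0 without set 6 and up to 5.03 without another set, and of Pfkp, 0.982 under gating. The cause of these shifts was not tested. Of 3454 further values (class sums, member folds, isoform shares and counts of calls), 2908 stayed within the spread or interval of the value reported, or within 1.5 times for counts. Depth limits the shallow host classes, where a few counts set a level.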
